A study of Homo sapiens with 4 samples.

Results

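The genes of cholesterol and fatty acid synthesis were followed in RNA sequencing of A549, an established cell line from a human lung adenocarcinoma. They are 31 genes chosen by name, with earlier results of these data known, from the 57905 genes of the deposited count table. Each of the 31 symbols was found there. They were divided by role into 7 genes of the mevalonate arm, 11 of the sterol arm, 4 of sensors and transport, and 9 of the fatty acid arm. Each of the 4 conditions has 1 library. The sc line carries a scramble control hairpin, and the shDCBLD2 line carries a hairpin against DCBLD2, a transmembrane receptor-like protein. By the methods of the study, these hairpins were placed in a lentiviral vector with an H1 promoter and a puromycin marker. The vector line carries an empty lentiviral vector, and the DCBLD2 overexpression line carries the same backbone with the DCBLD2 coding sequence behind an EF1 promoter, selected with blasticidin. Which hairpin the sequenced shDCBLD2 line holds, and whether any line is a clone, are not given in the sources used here. No treatment is given for these libraries.

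Cells make cholesterol and fatty acids from the same precursor, acetyl-CoA. The mevalonate arm joins acetyl-CoA units into isoprenoids, the sterol arm closes and trims squalene to cholesterol, and the fatty acid arm builds, lengthens and desaturates acyl chains. The transcription factors SREBP-1 and SREBP-2, encoded by SREBF1 and SREBF2, switch on most of these genes when they leave the endoplasmic reticulum, where INSIG1 holds them back while sterols are plentiful, and INSIG1 is itself one of their target genes. Tumour cells of the lung, like other dividing cells, rely on both arms for membranes.

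The targeted gene does not match one of the labels. The library labelled DCBLD2 overexpression is called the OE-labelled library from here on. In CPM, counts relative to the library total after TMM scaling for composition, DCBLD2 stood at 504 in sc, 197 in shDCBLD2, 434 in vector and 242 in the OE-labelled library. DCBLD2 was thus lowest in shDCBLD2, and in the OE-labelled library it was also below its control, against the label. The log2 ratios were -1.35 (95% interval -1.40 to -1.30) and -0.84 (-0.90 to -0.79). Every direction drawn from the OE-labelled library is therefore given as a direction of that library and is not read as one of raised DCBLD2 transcript. Whether this library and vector were exchanged, or the transgene was not counted, was not tested. An exchange would turn the sign of each ratio between these 2 libraries. Library totals ran from 16601633 to 21537283 counts on genes. Of the epithelial markers, KRT8 and KRT18 were abundant in all 4 libraries, while SFTPA1, SFTPB, SFTPC and NKX2-1 of the lung epithelium had at most 11 counts in any library.

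With 1 library per condition there is no replicate check and no p-value. Each interval given is an exact Clopper-Pearson interval on the pair of counts, which covers counting error only. A gene was called on a ratio of 2-fold or more together with an interval that does not include 0 on the log2 scale. The OE-labelled library was compared with vector, and shDCBLD2 with sc. These comparisons share no library. The control lines, vector and sc, were also compared, and that comparison shares 1 library with each of the others. A mean of at least 1 CPM over the 4 libraries was passed by 13966 genes, and by 31 of the 31 synthesis genes. In bulk RNA of this kind, fewer cells of a type and less RNA per cell cannot be told apart.

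The synthesis genes were mostly lower in the OE-labelled library. Of the 31, 25 were lower and 6 higher than in vector, while 47.1% of all genes past the filter were higher. The median log2 ratio was -0.34 against -0.04 over all genes past the filter. Without the 20 genes that overlap another entry, whose reads counting could split, the median was -0.10. The intervals of the 31 genes lay below 0 for 21 and above 0 for 4, which is 67.7% and 12.9%, beside 36.0% and 31.9% of all genes. An interval excludes 0 more easily at high counts. In level per length of transcript (FPKM), 24 of the 31 were above the median of all genes past the filter. Shares of intervals, here and below, are therefore not like for like with those of all genes. The 31 were also chosen with earlier results of these data known. At 2-fold, 2 were called lower, IDI1 and INSIG1, which is 6.45% beside 5.35% of all genes, so the share at this size was near the background. None was called higher, beside 6.42% of all genes. At 1.5-fold, 10 were lower and 0 higher, beside 17.8% and 12.8% of all genes. The OE-labelled library was the lowest of the 4 for 17 of the 31, or 54.8%, beside 39.2% of all genes.

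In shDCBLD2 the median lay nearer to 0. Of the 31, 24 were lower and 7 higher than in sc, while 50.9% of all genes were higher. The median log2 ratio was -0.12 against 0.01 over all genes. Intervals lay below 0 for 14 and above 0 for 3, or 45.2% and 9.68%, beside 27.1% and 29.8% of all genes. TM7SF2 alone was called lower at 2-fold, 3.23% of the 31 beside 5.62% of all genes, and none was called higher, beside 1.16%. Between the control lines, 16 were higher (beside 49.2% of all genes) and 15 lower in vector than in sc, with a median of 0.04. None was called at 2-fold, beside 2.22% of all genes called higher and 1.89% called lower. Summed over the 31 genes, the level was 4576 CPM in sc, 3820 in shDCBLD2, 4080 in vector and 3508 in the OE-labelled library.

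**Figure D1:**
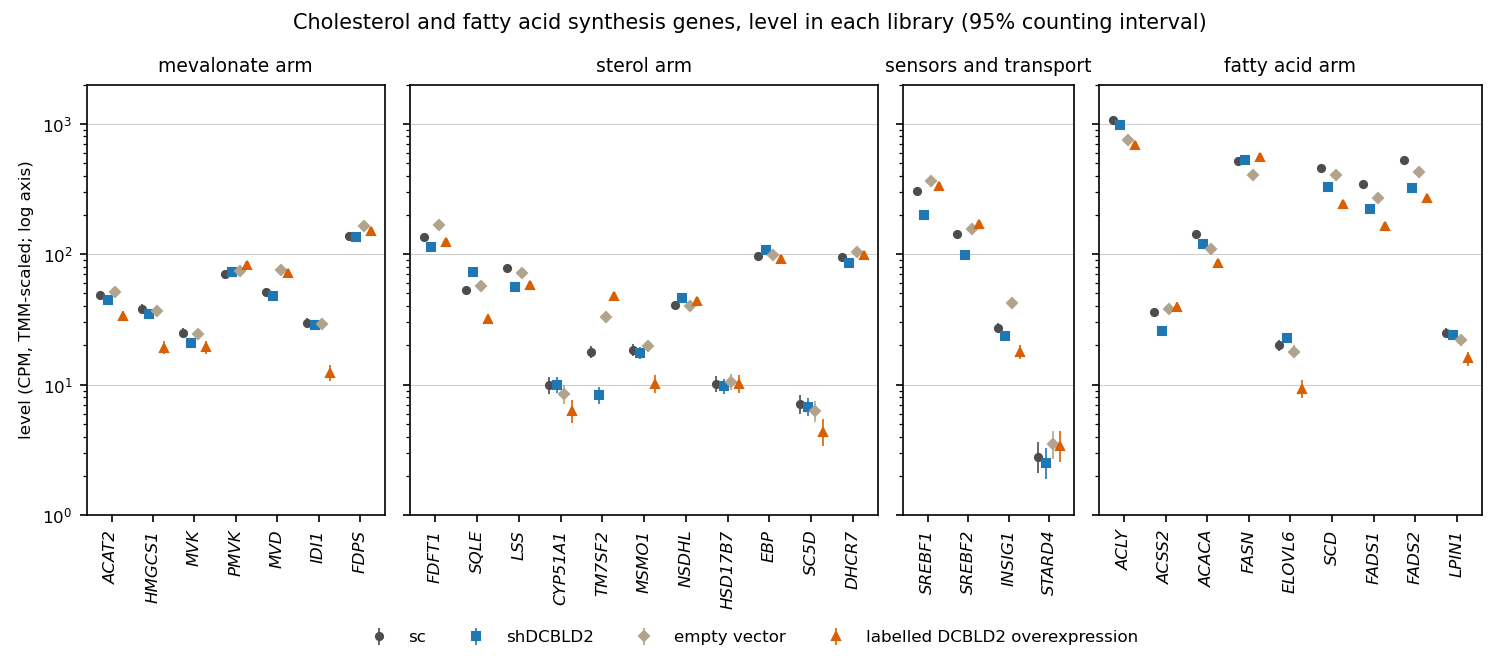
Level of each of the 31 genes (CPM, log axis) in the 4 libraries, by role; points are single libraries and bars are 95% counting intervals. For IDI1 (12.3 CPM) and ELOVL6 (9.33 CPM) the triangle of the OE-labelled library is below the other 3 points, and for TM7SF2 (8.30 CPM) the square of shDCBLD2 is.

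Levels between genes can be compared per length of transcript, as FPKM. ACLY, which makes cytosolic acetyl-CoA from citrate, was the most abundant of the 31 at 130 to 209 FPKM over the libraries. SCD, the stearoyl-CoA desaturase, had 45.0 to 87.2 FPKM. STARD4, a sterol carrier protein, was the least abundant at 0.44 to 0.60 FPKM. Of the 31 genes, 24 had a mean level above 4.21 FPKM, the median of the genes past the filter. From FADS2, at percentile 90.4 of those genes, up to ACLY at 98.5, 8 of the 31 were among the most abundant.

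In the mevalonate arm the OE-labelled library stood apart at some steps and not at others. IDI1 (ENSG00000067064), the isomerase that makes the reactive isoprenoid unit, is placed by the files, which state no genome build, at 1085848 to 1095110 of chromosome 10. It had 582 counts in sc, 615 in shDCBLD2, 539 in vector and 203 in the OE-labelled library. These are 29.7, 28.5, 29.4 and 12.3 CPM. The other 3 libraries lay close together and the OE-labelled library below them. Its log2 ratio to vector was -1.25 (-1.496 to -1.020), and 297 of the 13966 genes were at least as low. With sc in place of vector the ratio was -1.27. In shDCBLD2 against sc it was -0.06 (-0.23 to 0.10), with an interval that includes 0.

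HMGCS1, the synthase that makes HMG-CoA, followed the same order. It stood at 38.3 CPM in sc, 34.8 in shDCBLD2, 36.4 in vector and 19.3 in the OE-labelled library. Again a single library was low, with a log2 ratio to vector of -0.92 (-1.12 to -0.72). ACAT2, which condenses acetyl-CoA at the entry of the pathway, was at 48.5, 44.5, 50.9 and 33.8 CPM in the same order of libraries, with a ratio of -0.59 (-0.75 to -0.44). MVK, mevalonate kinase, was at 25.1, 21.0, 24.4 and 19.3 CPM, lower in both perturbed lines than in their controls. Its ratios were -0.34 (-0.55 to -0.13) in the OE-labelled library and -0.26 (-0.45 to -0.07) in shDCBLD2. By the deposited coordinates, ACAT2 overlaps TCP1 and SOD2, and MVK overlaps MMAB, and shared reads may stand under either name. In the OE-labelled library MMAB had a ratio of -0.56, TCP1 -0.38 and SOD2 0.50. In shDCBLD2 MMAB had -0.16, TCP1 0.39 and SOD2 -0.54.

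The later kinase and decarboxylase of this arm did not share the low values. PMVK, phosphomevalonate kinase, was at 70.2 CPM in sc, 73.6 in shDCBLD2, 73.8 in vector and 82.0 in the OE-labelled library, where its ratio was 0.15 (0.04 to 0.26). MVD, the diphosphomevalonate decarboxylase, was at 51.3, 47.8, 76.1 and 72.0 CPM. The control lines differed by 0.57 (0.45 to 0.69), and each perturbed line stayed within counting error of its own control. FDPS, which makes farnesyl diphosphate, was at 139, 135, 165 and 150 CPM. Its ratio was -0.13 (-0.21 to -0.06) against vector and 0.11 (0.03 to 0.19) against sc, so its direction depends on the control.

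In the sterol arm, SQLE and MSMO1 were lowest in the OE-labelled library. SQLE, the squalene epoxidase that commits squalene to sterols, had 52.8 CPM in sc, 72.8 in shDCBLD2, 56.8 in vector and 32.0 in the OE-labelled library. The perturbed lines lay on either side of both controls. The log2 ratios were -0.83 (-0.98 to -0.68) in the OE-labelled library and 0.46 (0.35 to 0.58) in shDCBLD2. MSMO1, a methylsterol oxidase, had 18.5, 17.4, 19.7 and 10.1 CPM, with a ratio of -0.95 (-1.23 to -0.69) in the OE-labelled library and -0.08 (-0.29 to 0.13) in shDCBLD2.

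FDFT1, which makes squalene, and LSS, which closes the epoxide of squalene to lanosterol, were lower in both perturbed lines. FDFT1 stood at 136 CPM in sc, 113 in shDCBLD2, 167 in vector and 124 in the OE-labelled library. Its ratios were -0.43 (-0.51 to -0.35) and -0.27 (-0.35 to -0.19), and the controls differed by 0.29. LSS stood at 78.8, 56.2, 72.3 and 57.9 CPM, with the perturbed lines near each other and below both controls. Its ratios were -0.32 (-0.44 to -0.20) in the OE-labelled library and -0.49 (-0.60 to -0.38) in shDCBLD2.

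TM7SF2 (ENSG00000149809; chromosome 11 from 64879317 to 64883856), a sterol reductase of the endoplasmic reticulum, had the widest range of the 31. It had 348 counts in sc, 179 in shDCBLD2, 604 in vector and 785 in the OE-labelled library, or 17.8, 8.30, 32.9 and 47.6 CPM. All 4 libraries differed, in an order unlike that of IDI1 or SQLE. Its log2 ratio in shDCBLD2 was -1.09 (-1.37 to -0.84) and in the OE-labelled library 0.53 (0.38 to 0.69). The controls differed by 0.88 (0.69 to 1.08), so these sizes depend on the control: against the other control they were -1.97 and 1.41. TM7SF2 shares 16 bases with VPS51 on the same strand. VPS51 had ratios of -0.20 in shDCBLD2 and 0.20 in the OE-labelled library, in the same directions and smaller.

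CYP51A1 and SC5D were lower in the OE-labelled library on few counts, and EBP, DHCR7, NSDHL and HSD17B7 lay nearer to 0 there. CYP51A1, the lanosterol demethylase, had 103 to 215 counts per library and a ratio of -0.43 (-0.81 to -0.07) in the OE-labelled library. SC5D, the lathosterol desaturase, had 72 to 146 counts and a ratio of -0.51 (-0.97 to -0.08). Both intervals are wide at these counts. EBP, the sterol isomerase, had -0.10 in the OE-labelled library, a sign that turned to 0.02 with upper-quartile scaling, and 0.15 (0.07 to 0.24) in shDCBLD2. DHCR7, which completes cholesterol on 1 branch, had -0.07 (-0.17 to 0.02) and -0.16 (-0.25 to -0.06). NSDHL and HSD17B7, which act together on the sterol C4 position, had 0.14 (-0.01 to 0.29) and -0.04 (-0.35 to 0.27) in the OE-labelled library. In shDCBLD2 they had 0.16 (0.03 to 0.30) and -0.07 (-0.36 to 0.22).

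Among the sensors, INSIG1 was called lower. INSIG1 (ENSG00000186480; chromosome 7 from 155089486 to 155101945), the membrane protein that retains the SREBPs when sterols are high, had 534 counts in sc, 513 in shDCBLD2, 780 in vector and 294 in the OE-labelled library. These are 27.3, 23.8, 42.5 and 17.8 CPM, so vector was high and the OE-labelled library low. The log2 ratio between them was -1.25 (-1.45 to -1.06), and 294 genes were at least as low. The controls differed by 0.64 (0.48 to 0.80), and against sc the ratio was -0.61 (-0.83 to -0.41), which is under the 2-fold threshold.

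The transcription factors themselves behaved otherwise. SREBF1 stood at 307 CPM in sc, 199 in shDCBLD2, 364 in vector and 334 in the OE-labelled library. SREBF2 stood at 143, 98.4, 155 and 169 CPM. For both genes shDCBLD2 was the lowest library and the other 3 lay closer together. The log2 ratios in shDCBLD2 were -0.62 (-0.68 to -0.57) for SREBF1 and -0.53 (-0.62 to -0.45) for SREBF2. In the OE-labelled library they were -0.12 (-0.17 to -0.07) and 0.12 (0.05 to 0.20). With sc as the control the value of SREBF1 turned to 0.12. SREBF1 overlaps RAI1, which had a ratio of -0.29 in shDCBLD2. STARD4 had 54 to 64 counts in every library, and a difference was not detectable at this depth: its interval in the OE-labelled library ran from -0.58 to 0.50.

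The fatty acid arm split by enzyme. The desaturases were lower in both perturbed lines. FADS1, the delta-5 desaturase, stood at 344 CPM in sc, 224 in shDCBLD2, 272 in vector and 164 in the OE-labelled library. FADS2, the delta-6 desaturase, stood at 527, 319, 427 and 271 CPM, and SCD at 457, 329, 406 and 242 CPM. Each perturbed line was below both controls for all 3 genes. The log2 ratios in the OE-labelled library were -0.73 (-0.80 to -0.66) for FADS1, -0.66 (-0.71 to -0.60) for FADS2 and -0.74 (-0.80 to -0.69) for SCD. In shDCBLD2 they were -0.62 (-0.67 to -0.57), -0.72 (-0.77 to -0.68) and -0.47 (-0.52 to -0.43). FADS1 and FADS2 overlap each other on opposite strands and FADS2 overlaps FEN1 on the same strand. FEN1 had -0.32 and 0.27, so in shDCBLD2 it was on the other side of 0.

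The enzymes that build the chain went separate ways. FASN, the fatty acid synthase, stood at 515 CPM in sc, 528 in shDCBLD2, 402 in vector and 557 in the OE-labelled library. It was lowest in vector, and its ratio in the OE-labelled library was 0.47 (0.43 to 0.52), with 0.04 (-0.00 to 0.08) in shDCBLD2. ACACA, the acetyl-CoA carboxylase one step earlier, stood at 143, 120, 110 and 86.3 CPM, with ratios of -0.35 (-0.45 to -0.25) and -0.25 (-0.33 to -0.17). ELOVL6, which lengthens palmitate, stood at 20.0, 22.8, 17.9 and 9.33 CPM, low in the OE-labelled library alone, with -0.93 (-1.23 to -0.66). FASN and ELOVL6 thus lay on opposite sides of 0 in that comparison.

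ACLY stood at 1063 CPM in sc, 983 in shDCBLD2, 748 in vector and 682 in the OE-labelled library. The controls differed by -0.51 (-0.54 to -0.47), and the ratio within each pair was -0.13 (-0.17 to -0.10) in the OE-labelled library and -0.11 (-0.14 to -0.08) in shDCBLD2. In shDCBLD2 the signs of ACLY and ACACA turned, to 0.39 and 0.13, when vector served as the control. ACSS2, which makes acetyl-CoA from acetate, was at 36.2, 25.6, 37.8 and 39.6 CPM, low in shDCBLD2 alone with -0.50 (-0.67 to -0.34). It overlaps GGT7, which had -0.35 there. LPIN1, a phosphatidate phosphatase, had 489, 516, 403 and 262 counts, with -0.47 (-0.70 to -0.24) in the OE-labelled library.

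**Figure D2:**
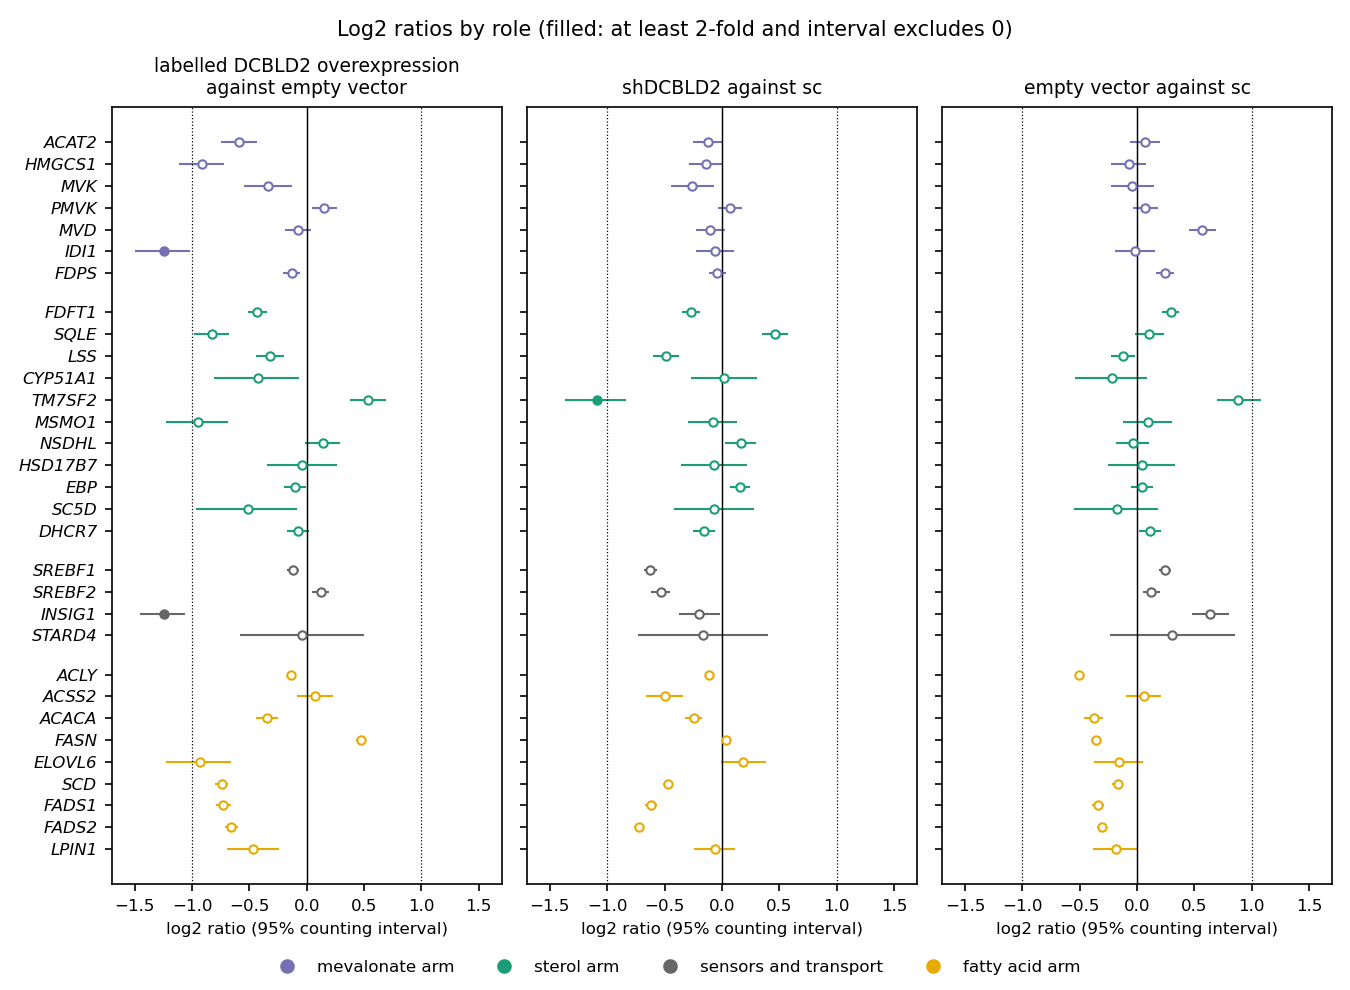
Log2 ratios of the 31 genes in the 3 comparisons, by role, with 95% counting intervals; filled points were called at 2-fold and dotted lines mark 2-fold. Filled points are IDI1 and INSIG1 at -1.25 on the left and TM7SF2 at -1.09 in the middle, and none is filled between the controls.

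By role, the medians in the OE-labelled library were -0.34 for the mevalonate arm, -0.32 for the sterol arm, -0.08 for sensors and transport and -0.47 for the fatty acid arm. In shDCBLD2 they were -0.10, -0.07, -0.37 and -0.25 in the same order. Several of these medians depend on the setting. Without the overlapping genes, the mevalonate arm was at 0.036 and the fatty acid arm at 0.17 in the OE-labelled library, and the sterol arm at 0.043 in shDCBLD2. In the OE-labelled library the sensors turned to 0.040 with upper-quartile scaling and to 0.18 against sc, and in shDCBLD2 the fatty acid arm turned to 0.12 against vector. Between the controls they were 0.07, 0.04, 0.27 and -0.30. In the fatty acid arm 8 of 9 genes were lower in vector than in sc, while 49.2% of all genes were higher.

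Set side by side, 10 of the 31 genes had intervals below 0 in both perturbed lines, or 32.3%, beside 6.02% of all genes. As given above, such shares are not like for like. The 10 are ACLY, ACACA, SCD, FADS1, FADS2, FDFT1, LSS, MVK, SREBF1 and INSIG1, of which 5 belong to the fatty acid arm. With the other control 3 of the 10 turned in sign in 1 perturbed line, SREBF1 in the OE-labelled library and ACLY and ACACA in shDCBLD2. Were vector and the OE-labelled library exchanged, these 10 would have opposite directions. None had intervals above 0 in both, beside 6.92% of all genes. Opposite directions were seen for TM7SF2 and SREBF2, higher in the OE-labelled library and lower in shDCBLD2, and for SQLE and EBP, the other way round, where the sign of EBP rests on the scaling as given above. These patterns took 6.45% of the 31 each, beside 13.1% and 15.8% of all genes.

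**Figure D3:**
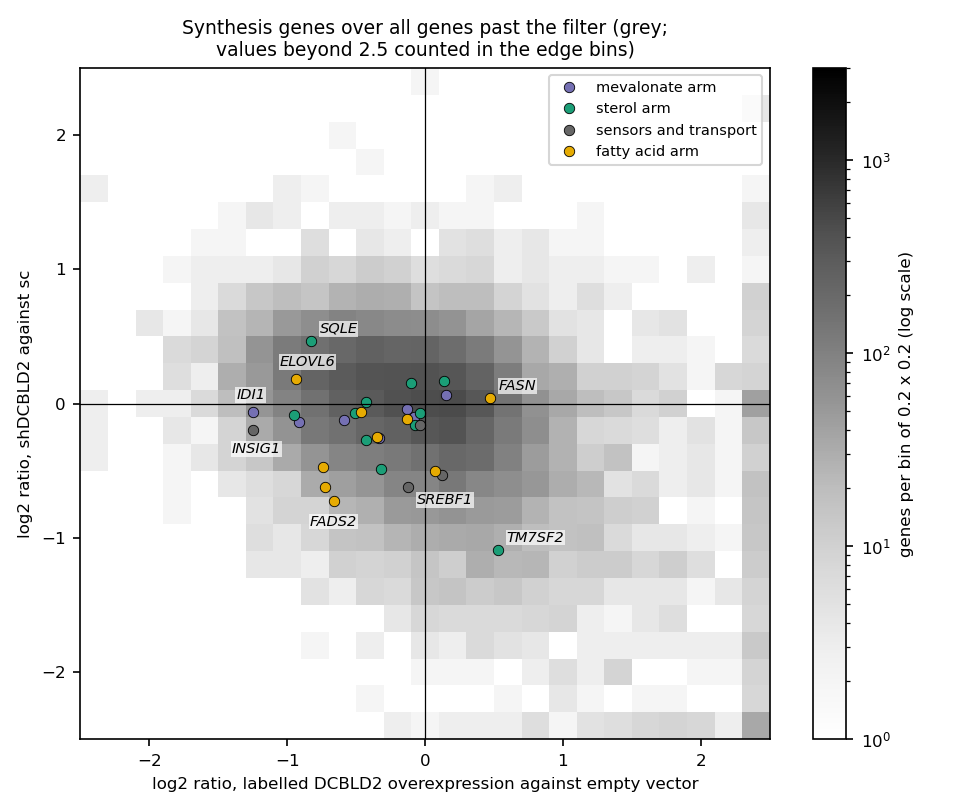
Log2 ratio in the OE-labelled library against vector (x) and in shDCBLD2 against sc (y) for the 31 genes, coloured by role, over the number of all 13966 genes in each bin (grey, log scale). Most of the 31 lie left of 0, with FADS2 at -0.66 and -0.72, IDI1 at -1.25 and -0.06, and TM7SF2 at 0.53 and -1.09.

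The promoters of the genes were read for the motifs that the SREBPs and their partner NF-Y are known to bind. RefSeq promoters on GRCh38.p14, from 250 bases before to 50 after the annotated start, were matched by symbol for 27 of the 31 genes. FDFT1, SQLE, FASN and ACAT2 had no entry. A gene with several promoters counted if any of them held the motif. CCAAT on either strand, the NF-Y box, was in 21 of the 27 (77.8%), beside 39.7% of 27305 genes. By promoter it was in 25 of 39, beside 34.6% of 35116. TCACNCCAC, a sterol regulatory element core, was in SREBF2 alone (3.70%), beside 1.39% of genes. CACGTG, an E-box, was in LSS, SC5D and INSIG1 (11.1%), beside 8.77%. Of the 18 matched genes with an interval below 0 in the OE-labelled library, 13 held CCAAT and of the other 9, 8 did. The motifs were searched on both strands and none of the 3 holds another. A match is a run of letters and not a shown site of binding.

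Shown are 30 bases around the CCAAT box nearest to the start for the 5 genes that hold it before the start and had the lowest ratios in the OE-labelled library (INSIG1, IDI1, MSMO1, HMGCS1, SCD), then for the 3 with the highest (TM7SF2, NSDHL, SREBF2). Capitals mark the box, written 5′ to 3′ along the gene, as CCAAT or as its complement ATTGG. The last line holds the sterol regulatory element core of SREBF2 in capitals.
INSIG1 (chr7:155297695-155297724, + strand): ccgccggcctcccATTGGttgcggccgcct
IDI1 (chr10:1048957-1048986, - strand): gctggcgcgagcgATTGGctgcgcggcccg
MSMO1 (chr4:165327622-165327651, + strand): gagctctcgcaggCCAATaacgacaggacg
HMGCS1 (chr5:43313496-43313525, - strand): tctaccggccgcgATTGGctgtgggagcca
SCD (chr10:100347034-100347063, + strand): aaattcccttcggCCAATgacgagccggag
TM7SF2 (chr11:65111785-65111814, + strand): cccccgagcgccgATTGGctggtgtgctgg
NSDHL (chrX:152830966-152830995, + strand): tcgccgagctgggCCAATcctcttggtgga
SREBF2 (chr22:41832986-41833015, + strand): gcttcgctcgcccATTGGctgagatgagcc
SREBF2, sterol regulatory element (chr22:41832961-41832990, + strand): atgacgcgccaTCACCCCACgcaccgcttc
In SREBF2 the sterol element begins 133 bases before the annotated start and the CCAAT box 106 bases before it. The box lies 34 bases before the start in MSMO1 and 186 in SCD.

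Genes around the pathway were described from lists outside the 31. Of the 6 genes of SREBP processing, none was called in either perturbed line. Of all genes, 6.42% were called higher and 5.35% lower in the OE-labelled library, and 1.16% and 5.62% in shDCBLD2. SCAP, the escort that carries the SREBPs out of the endoplasmic reticulum, had 122, 116, 124 and 200 CPM in sc, shDCBLD2, vector and the OE-labelled library, high in the last, with a log2 ratio of 0.69 (0.61 to 0.77). INSIG2, the relative of INSIG1, had 8.59, 6.95, 8.28 and 5.21 CPM and a ratio of -0.66 (-1.07 to -0.28). Of 14 genes of isoprenoid and sterol handling past the filter, 9 were lower in the OE-labelled library. Intervals lay below 0 for 7 (50%) and above 0 for 4 (28.6%), beside 36.0% and 31.9% of all genes. NPC1, which exports cholesterol from lysosomes, was the 1 called (7.14%, beside 5.35% of all genes), at 69.2, 110, 105 and 35.6 CPM. Its ratio was -1.56 (-1.69 to -1.42) in the OE-labelled library and 0.66 (0.57 to 0.76) in shDCBLD2. For NPC1 the controls differed by 0.60, so these sizes depend on the control. Against sc the OE-labelled library was lower by less than 2-fold, and shDCBLD2 was near vector. In shDCBLD2 6 of the 14 were higher and none was called, beside 1.16% of all genes called higher and 5.62% called lower.

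The LXR receptors and their targets, which answer to excess sterol, were lower in shDCBLD2. In shDCBLD2 8 of 8 were lower than in sc, while 50.9% of all genes were higher. NR1H2 was barely lower, at 142 CPM in sc and 141 in shDCBLD2. Intervals lay below 0 for 6 of the 8 (75%, beside 27.1% of all genes). The median was -0.49, and 3 were called, or 37.5% beside 5.62% of all genes. ABCG1, a cholesterol exporter, had 104 counts in sc, 19 in shDCBLD2, 117 in vector and 368 in the OE-labelled library. It was lowest in shDCBLD2 with a ratio of -2.46 (-3.38 to -1.88), and highest in the OE-labelled library with 1.79 (1.503 to 2.119). NR1H3, which encodes LXR alpha, had -1.13 (-1.35 to -0.93) in shDCBLD2 and 0.06 (-0.12 to 0.25) in the OE-labelled library. MYLIP, a ubiquitin ligase of lipoprotein receptors, had -1.25 (-1.86 to -0.74) and 0.71 (0.33 to 1.11). SREBF1, itself a known target of LXR, was lower in shDCBLD2 as given above, and a link to the LXR genes was not tested. In the OE-labelled library 5 of the 8 were higher, with a median of 0.12, and ABCA1, another exporter, had -0.75 (-1.08 to -0.45).

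Of 24 further genes of fatty acid and glycerolipid synthesis past the filter, 12 were higher and 12 lower in the OE-labelled library, and 9 and 15 in shDCBLD2. ELOVL4, an elongase of very long chains, was the 1 called (4.17%, beside 6.42% of all genes), with 1.41 (0.69 to 2.38) on 18 counts in vector and 46 in the OE-labelled library. Other genes of the list were lower there. ACSL3, an acyl-CoA synthetase, had -0.99 (-1.12 to -0.86), and ME1, the malic enzyme that supplies NADPH, had -0.89 (-1.03 to -0.76). ACSL3 and ME1 were named after their values were seen. The list thus held both directions.

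**Figure D4:**
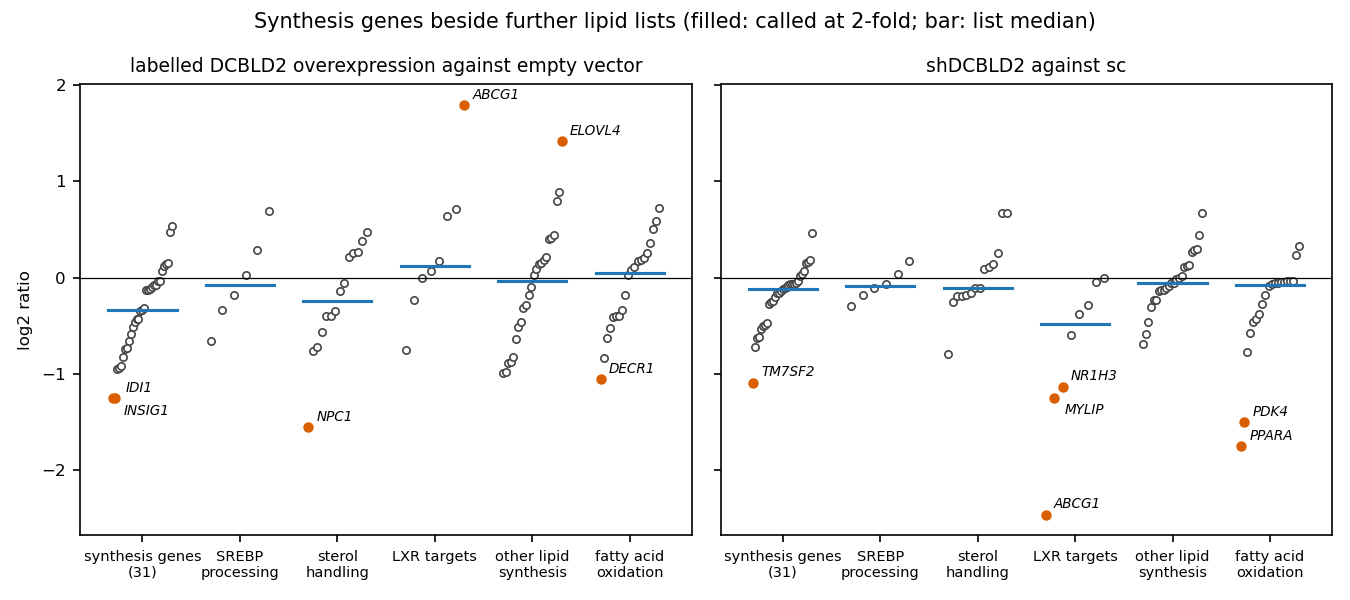
Log2 ratios of the 31 synthesis genes and of 5 further lists in the OE-labelled library against vector (left) and in shDCBLD2 against sc (right); each point is a gene, filled points were called at 2-fold, and bars are list medians. The bar of the synthesis genes is at -0.34 on the left, and the bar of the LXR targets is at 0.12 on the left and -0.49 on the right.

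Other markers moved with these libraries. Summed over the 9 epithelial markers, the level was 13497 CPM in sc, 7635 in shDCBLD2, 9566 in vector and 14698 in the OE-labelled library. Of the 5 past the filter, 5 had intervals below 0 in shDCBLD2, beside 27.1% of all genes, among them CDH1, the epithelial cadherin, at -2.38. In the OE-labelled library 5 had intervals above 0, beside 31.9% of all genes. The controls differed here too, with intervals below 0 for 3 of the 5 in vector against sc. KRT8 had 8209 CPM in sc, 5625 in vector and 8547 in the OE-labelled library. The summed fibroblast-like markers were 39.2, 60.5, 46.1 and 86.3 CPM. Most of this sum was COL1A1, at 32.7, 54.0, 35.5 and 63.1 CPM, higher in both perturbed lines than in their controls. THY1, at 3.27, 3.94, 8.72 and 6.91 CPM, was lower in the OE-labelled library than in vector. Of the 5 past the filter, COL1A2, COL3A1 and COL6A3 were called higher in the OE-labelled library, or 60%, beside 6.42% of all genes. COL1A2 and COL3A1 had 0 and 6 counts in vector and were below 1 CPM outside the OE-labelled library. They passed the filter through that library alone, so their calls and this share carry no weight. The defining markers DCN, LUM and FAP had at most 4 counts in any library, while POSTN had 42 counts in the OE-labelled library and 0 in the other 3. The summed hepatocyte-like markers were 14.6, 3.06, 3.65 and 52.2 CPM, nearly all FGB, with APOB at 0 in every library. The summed adipocyte-like markers were 8.62 to 17.6 CPM with ADIPOQ, LEP and FABP4 at 0, and the summed blood-like markers were 4.31 to 21.7 CPM with PTPRC and MS4A1 at 0. The part of any of these in the values of the synthesis genes was not tested.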

How the data were processed

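For 4 libraries of poly(A) RNA the authors deposited raw read counts of 57905 genes, and FPKM values made from these counts, the exonic gene size and the library total. The per-library files hold the same values as the table of the series, and no sample column was left out. The deposited coordinates name no genome build. The submitters' processing notes name mm9, a mouse build, although the identifiers are human. Aligner, counting program, annotation and use of strand are not given in the sources used here. Genes that overlap another entry, 20 of the 31, are therefore uncertain where counting could split reads.

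Scaling used TMM (edgeR 4.0.16, R 4.3.3), and an alternative took size factors of DESeq2 1.42.0. Ratios and intervals were computed in Python 3.11.15 (scipy 1.17.1, numpy 2.4.6, pandas 2.3.3), and figures with matplotlib 3.10.9. A prior count of 2, scaled to library size, entered the log2 ratios. Intervals are exact Clopper-Pearson intervals at 95% without the prior count. A count of 3 or fewer was taken as the floor. Where a symbol had several entries, as 246 have, the most counted entry was taken. The calculation was tested on simulated data.

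The genes named are the 31, DCBLD2, and of each further list those called in any comparison, at most the 3 largest per list and comparison, and genes that define the list. Any other was named after its values were seen, which holds for SCAP, INSIG2, ABCA1, ACSL3, ME1, PLIN2, COL1A1, POSTN and the overlap partners. The 31 genes, their roles and all lists were chosen with earlier results of these data known. The deposited coordinates were not used with GRCh38, and the promoter sequences are RefSeq's. A further list of 4 genes is not reported here. Alternatives were other scalings, prior counts, filters, a 1.5-fold threshold, the other control and leaving out overlapping genes.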

Additional observations from a re-analysis of the deposited data

How the results depend on the processing

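No setting gives a replicate, and each result rests on 1 library per condition. The median of the 31 genes kept its sign in the OE-labelled library against vector and in shDCBLD2 against sc under every alternative run, and that of vector against sc moved between -0.04 and 0.07. Upper-quartile scaling moved the median of all genes in the OE-labelled library from -0.04 to 0.08 and that of the 31 genes to -0.21, with 1087 of all genes called higher and 483 lower in place of 897 and 747. Of 606 checks of the sign of a single gene whose interval excluded 0, 5 turned. These were EBP with upper-quartile scaling, FDPS and SREBF1 with sc as the control, and ACLY and ACACA with vector as the control. A filter, a fold threshold or leaving out genes does not change a gene's ratio, so many of the 606 could not turn. With sc as the control, 2 turned and 23 kept their sign. With vector as the control, 2 turned and 15 kept theirs. A 1.5-fold threshold called 10 genes lower in the OE-labelled library, 4 lower in shDCBLD2 and 2 higher in vector against sc. Of all genes it called 17.8%, 11.6% and 7.07% in the same order, so the last 2 counts were near the background. Without the 20 overlapping genes, the median in the OE-labelled library was -0.10, with 1 of the 11 left called lower, beside 5.35% of all genes. Role medians were then 0.036 for the mevalonate arm, -1.25 for the sensors (INSIG1 alone) and 0.17 for the fatty acid arm. The first and the last of these turned in sign, on the few genes left. In shDCBLD2 none was then called lower (0), with -0.20 for the sensors and -0.037 for the fatty acid arm. In vector against sc the medians were 0.32 for the mevalonate arm, 0.64 for the sensors and -0.43 for the fatty acid arm. Leaving out only the 10 genes that overlap an entry of at least 1 CPM, a setting chosen after seeing the data, left 21. The median for the OE-labelled library was then -0.43, with 2 called lower, beside 5.35% of all genes. The mevalonate arm was at -0.50 and the sensors at -0.64. In shDCBLD2 this setting gave 0 called, -0.18 for the sensors and -0.088 for the fatty acid arm, and 0.47 for the sensors in vector against sc. With sc as the control, the OE-labelled library had 1 of the 31 called higher, TM7SF2, beside 1128 of all 13966 genes. Called lower were 3, IDI1, ELOVL6 (-1.09) and FADS1 (-1.07) but not INSIG1, beside 1254 of all genes, so near the background. Role medians were then -0.14 for the sterol arm, 0.18 for the sensors and -0.72 for the fatty acid arm. With vector as the control, shDCBLD2 had -0.75 for the sensors and 0.12 for the fatty acid arm, a turn in sign. At a mean of at least 5 CPM the sensors in shDCBLD2 were at -0.53. The other list values, 218 of 245, stayed within 1.5 times the main count or, for medians, within the median half-width of the single-gene intervals. Of these medians, 5 close to 0 still turned in sign: in the OE-labelled library the sensors, to 0.040 with upper-quartile scaling, in shDCBLD2 the sterol arm, to 0.043 without the overlapping genes, and in vector against sc the sterol arm (-0.021) and the 31 genes (-0.022) with library totals alone, and the 31 genes (-0.039) without the 10 genes that overlap an entry of at least 1 CPM. The sensors in the OE-labelled library, at 0.18 with sc, turned as well. No paired analysis was possible because each condition has 1 library. Depth limits STARD4, SC5D and CYP51A1 most.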

Other observations

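Genes that burn fatty acids were lower in shDCBLD2 for 18 of 20, while 50.9% of all genes were higher. Intervals lay below 0 for 10 (50%, beside 27.1% of all genes). The median log2 ratio in shDCBLD2 was -0.08 against 0.01 over all genes. PPARA and PDK4 were called there, 10% of the 20 beside 5.62% of all genes. PPARA, a receptor that switches on fatty acid oxidation, had 200 counts in sc, 64 in shDCBLD2, 149 in vector and 136 in the OE-labelled library. It was low in shDCBLD2 alone, with a ratio of -1.75 (-2.21 to -1.37). PDK4, a kinase that turns cells from glucose to fatty acids, stood at 84.3, 29.7, 48.6 and 73.1 CPM, with -1.50 (-1.64 to -1.37) in shDCBLD2 and -0.79 (-0.91 to -0.67) between vector and sc. In the OE-labelled library 11 of the 20 were higher and 9 lower, and DECR1, which reduces unsaturated acyl chains in mitochondria, was called lower with -1.06 (-1.29 to -0.84), 5% beside 5.35% of all genes.

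CIDEC, a protein of lipid droplets, had 161 counts in sc, 11 in shDCBLD2, 26 in vector and 102 in the OE-labelled library. Its level was high in sc and in the OE-labelled library and low in the others. The log2 ratios were -3.76 (-5.04 to -3.13) in shDCBLD2, 2.05 (1.49 to 2.81) in the OE-labelled library and -2.45 (-3.20 to -1.93) between vector and sc. PLIN2, another coat protein of droplets, had 32.4, 27.5, 30.6 and 24.5 CPM in sc, shDCBLD2, vector and the OE-labelled library, with ratios of -0.32 (-0.51 to -0.13) in the last and -0.23 (-0.40 to -0.07) in shDCBLD2. It was named after its values were seen.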
